A study of Mus musculus with 3 samples.

Results

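Cells build cholesterol from acetyl-CoA through the mevalonate pathway and then through a chain of sterol intermediates, and they build fatty acids from the same precursor. Both pathways are under the SREBP transcription factors, which the escort protein SCAP carries out of the endoplasmic reticulum when sterols are scarce and which INSIG proteins hold back when sterols are plentiful. In cartilage, sterols also modify hedgehog ligands such as Indian hedgehog, a signal from chondrocytes that are about to enlarge.

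The genes described here are 31 genes of sterol and fatty acid synthesis, of 32285 genes in the count tables. They are 18 enzymes of the sterol pathway, 4 regulators (*Srebf1*, *Srebf2*, *Scap*, and *Insig1*), the sterol carrier *Stard4*, and 8 genes of fatty acid synthesis and desaturation. The list was chosen by measured values of these same cells, because sterol genes led a cluster of chondrocytes, so their level in chondrocytes is a description and not a finding. All 31 were present in each of the 3 libraries.

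The data are single-cell RNA counts from the callus of C57BL/6 mice with a femoral fracture and no further treatment, 1 library each from day 7, day 10, and day 14. The animals' age, sex, and number per library are not given in the labels, and no cells from uninjured bone were used here. The cells were sorted alive and free of the lineage antigens CD45, CD31, and TER119, which mark blood, endothelial, and erythroid cells. With 1 library per day there is no replicate, so day and library cannot be told apart, no p-value is given, and every interval covers counting error only. Levels are unique molecular identifiers (UMIs, 1 per captured RNA molecule) summed over the cells of a class and expressed per 1000000 UMIs of that class (CPM), with exact Poisson 95% intervals.

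Within the limits on cells, 7017, 6593, and 9853 cells were kept at day 7, day 10, and day 14. Of the day 7 cells, 6570 held UMIs of *Ptprc*, the gene of CD45, against 6 at day 10 and 173 at day 14, so the day 7 library went against its sort. The 447 day 7 cells without *Ptprc* all carried more than 5 UMIs per 10000 of 6 blood genes, against 4 of 6587 at day 10 and 180 of 9680 at day 14. The heat shock gene *Hspa1a*, which responds to handling, stood at 90.01 CPM in the *Ptprc*-free cells of day 7 and at 2156 and 3332 CPM in those of day 10 and day 14. The libraries shared 29 to 42 cell barcodes in each pair.

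Cells were placed in classes by single marker genes. *Cnmd*-high cells (at least 30 *Cnmd* UMIs per 10000 and under 100 of *Col10a1*) numbered 1684 at day 10 and 831 at day 14. *Col10a1*-high cells (at least 100 per 10000) numbered 476 and 1116, *Aspn*-high cells (at least 30) 1048 and 2511, *Ifitm5*-high cells (at least 10) 81 and 273, and *Rgs5*-high cells (at least 20) 71 and 200. *Cnmd* encodes chondromodulin of cartilage, *Col10a1* the collagen of hypertrophic chondrocytes, *Aspn* an extracellular protein of fibroblastic progenitors, *Ifitm5* a protein of osteoblasts, and *Rgs5* a protein of pericytes. The cartilage collagen gene *Col2a1* stood at 45386 and 42380 CPM in *Cnmd*-high cells against 1506 and 926 CPM in *Aspn*-high cells, *Bglap* (osteocalcin) at 7796 and 3294 CPM in *Ifitm5*-high cells, and *Notch3* at 374 and 397 CPM in *Rgs5*-high cells. At day 7 each of these classes held under 50 cells (28, 6, 11, 1, and 0), and they are not read. The adipocyte genes *Adipoq*, *Plin1*, and *Cidec* were at 0 or below 1 CPM in all 5 classes at day 10 and day 14.

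The sterol enzymes and the fatty acid genes followed different courses through the chondrocytes. Over bins of *Col10a1*, the summed sterol enzymes stood at 337 CPM (331 to 344) in cells without *Col10a1* at day 10, 391 in those above 0 to 5 UMIs per 10000, 807 at 5 to 20, 1098 at 20 to 100, 1009 at 100 to 300, and 1101 CPM (1068 to 1135) at 300 and more. At day 14 the same bins held 313, 397, 679, 659, 681, and 708 CPM. The sum was thus about as high in cells with 5 to 20 *Col10a1* UMIs as in the cells richest in *Col10a1* at day 14, and the last 3 bins at day 10 lay close together.

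The 8 fatty acid genes fell at the upper end, where the sterol sum changed little. At day 10 their sum was 402, 459, 579, 561, 341, and 302 CPM across the *Col10a1* bins, and at day 14 it was 298, 363, 371, 291, 225, and 169 CPM. On both days it was lowest in the bin of 300 and more, while its highest value, at 5 to 20 *Col10a1* UMIs per 10000, lay within the counting intervals of a neighboring bin.

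Over bins of *Cnmd*, neither sum was highest in the cells richest in *Cnmd*. The sterol enzymes stood at 419.6, 423, 612, 600.4, 375, and 248 CPM at day 10 from *Cnmd* of 0 to *Cnmd* of 60 and more, and at 359, 382, 505, 684, 527, and 268 CPM at day 14. The fatty acid genes stood at 342, 309.5, 392, 562, 499.9, and 412 CPM at day 10 and at 258, 241, 293, 499, 498, and 338 CPM at day 14. The sterol sum in cells of 60 and more *Cnmd* UMIs was below that of cells without *Cnmd* on both days, and the fatty acid sum was above it. These bins hold all cells without *Ptprc*, *Col10a1*-high cells included.

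**Figure D1:**
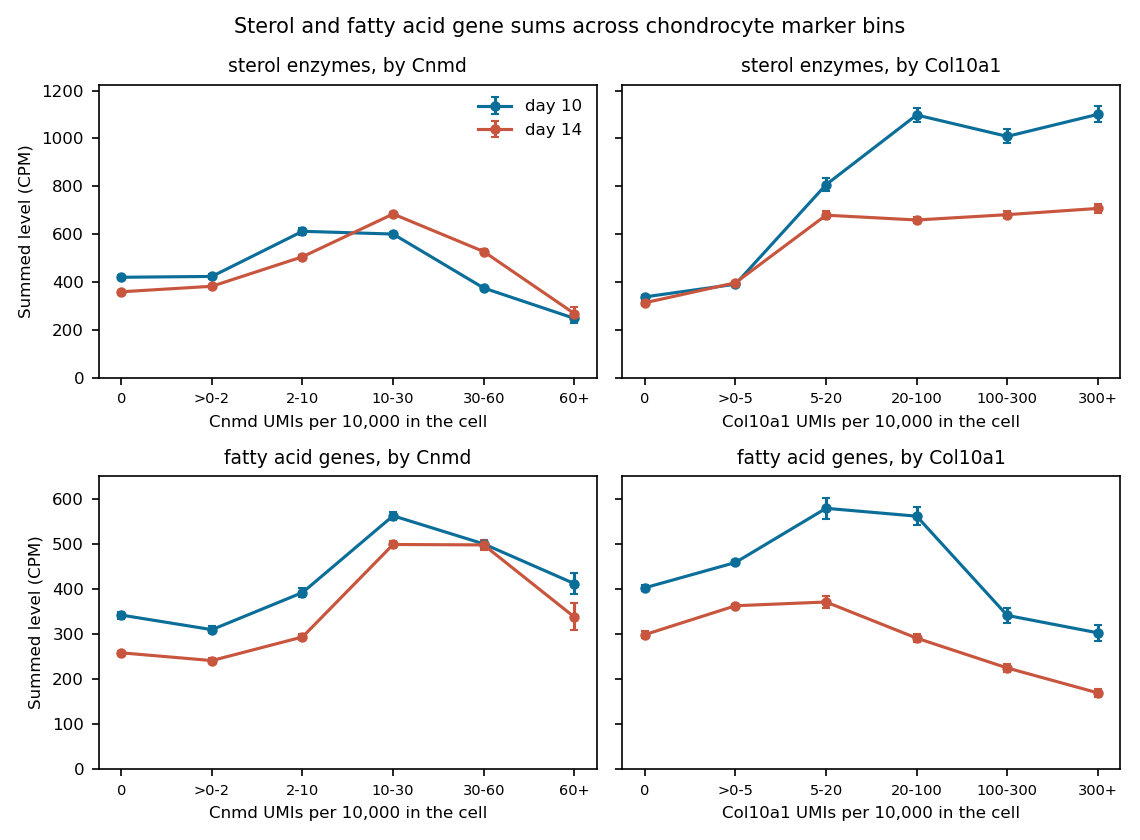
Summed CPM (y axis) of the 18 sterol enzymes (top) and the 8 fatty acid genes (bottom) in cells binned by *Cnmd* (left) or *Col10a1* (right) UMIs per 10000 (x axis), at day 10 and day 14, with bars for exact Poisson 95% intervals. The sterol sum stays between 1009 and 1101 CPM in the 3 highest *Col10a1* bins of day 10, while the fatty acid sum is at its lowest in the highest bin on both days.

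Taken as whole classes, *Col10a1*-high cells held more sterol enzyme RNA than *Cnmd*-high cells and less fatty acid gene RNA. This did not hold for each part of the *Col10a1*-high cells when they were split by *Mmp13*, as given below. The sterol sum was 1050.4 against 347 CPM at day 10, a log2 ratio of 1.60 (1.56 to 1.64), and 692 against 493 CPM at day 14, a log2 ratio of 0.49 (0.45 to 0.53). The fatty acid sum was 324 against 487 CPM at day 10, a log2 ratio of -0.59 (-0.65 to -0.53), and 202 against 479 CPM at day 14, a log2 ratio of -1.25 (-1.30 to -1.19). The median ratio over all genes was 0.08 and 0.04. Counting genes of at least 5 CPM in the library, 16 of 17 sterol enzymes were at least 1.5-fold higher in *Col10a1*-high cells at day 10 and 5 of 16 at day 14. With all 31 genes, 19 of the 30 counted were higher and 5 lower at day 10, where 20.9% of all genes were higher and 18.2% lower, and 6 of 29 were higher and 8 lower at day 14, where both shares were 18.8%. The 6 higher genes of day 14 became 16 in cells of 8000 to 25000 UMIs and 18 with every marker threshold doubled. Since the list came from a chondrocyte cluster, nothing is read from these counts.

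Among the enzymes of the mevalonate steps, *Hmgcs1*, which makes HMG-CoA (chr13:119690379-119708260, plus strand), stood at 40.1 CPM in *Cnmd*-high and 156 CPM in *Col10a1*-high cells at day 10, and at 60.8 and 87.1 CPM at day 14. *Idi1*, the isomerase that interconverts the isoprenoid building blocks (chr13:8885501-8892451, plus strand), stood at 20.2 and 94.8 CPM at day 10 and at 31.6 and 59.9 CPM at day 14. The log2 ratio of *Idi1* was 2.23 (2.08 to 2.38) at day 10 and 0.92 (0.77 to 1.07) at day 14. *Fdps*, which makes farnesyl diphosphate, differed by 1.53 and 0.28, and *Acat2*, which joins acetyl-CoA units at the head of the pathway, was the one counted sterol enzyme under 1.5-fold at day 10 with 0.42 (0.11 to 0.73). At day 14 *Acat2* (14.9 against 13.8 CPM) and *Pmvk*, a kinase of these steps (27.1 against 26.8 CPM), differed little between *Col10a1*-high and *Cnmd*-high cells. *Acat2* has a near-identical copy, *Acat3*, so its reads may have been split or dropped.

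The enzymes from squalene synthesis onward were also higher in *Col10a1*-high cells, apart from *Lss* at day 14. The enzyme *Dhcr7* differed little at day 14, with 7.5 CPM in *Col10a1*-high and 6.9 CPM in *Cnmd*-high cells. *Msmo1*, a C4 demethylation oxidase (chr8:64718139-64733792, minus strand), stood at 29.1 and 104 CPM in *Cnmd*-high and *Col10a1*-high cells at day 10 and at 42.9 and 61.6 CPM at day 14. *Cyp51*, the lanosterol demethylase, stood at 46.3 and 143 CPM at day 10 and at 56.8 and 83.0 CPM at day 14. *Fdft1*, which makes squalene, differed by 1.91 (log2) at day 10 and 0.97 at day 14, and *Sqle*, the squalene epoxidase, by 1.26 and 0.28. *Lss*, which closes the sterol rings, was higher in *Col10a1*-high cells at day 10 (log2 ratio 1.12) and lower at day 14 (-0.42, -0.83 to -0.02), at 4.9 to 10.7 CPM, and was under the 5 CPM minimum of the library at day 14. *Tm7sf2*, a sterol reductase that shares exon sequence with *Vps51* on the same strand, was under the 5 CPM minimum on both days.

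The regulators did not move as 1 group. *Srebf2*, the SREBP form mainly tied to sterol genes, stood at 25.3 CPM in *Cnmd*-high and 51.0 CPM in *Col10a1*-high cells at day 10, with a log2 interval of 0.84 to 1.18, and at 25.7 and 33.4 CPM at day 14. *Srebf1*, the form mainly tied to fatty acid genes, went the other way, with 28.4 and 13.4 CPM at day 10 and 24.1 and 12.5 CPM at day 14 (log2 ratios of -1.08 and -0.95). *Insig1*, itself a target of SREBPs, differed by 1.34 and 0.26, and the interval of *Scap* held 0 on both days (0.22 and -0.16). *Stard4*, which carries sterols between membranes, stood at 15.2 and 54.2 CPM at day 10 and at 16.1 and 33.0 CPM at day 14.

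Of the fatty acid genes, *Fads2*, the delta-6 desaturase of polyunsaturated fatty acids (chr19:10062765-10101746, minus strand), differed most. It stood at 118 CPM in *Cnmd*-high and 31.9 CPM in *Col10a1*-high cells at day 10, and at 81.9 and 19.0 CPM at day 14, which gave log2 ratios of -1.89 (-2.07 to -1.71) and -2.10 (-2.27 to -1.94). Its neighbor *Fads1*, the delta-5 desaturase, differed by -0.75 and -1.15, *Acaca* (acetyl-CoA carboxylase) by -0.93 and -0.97, and the elongase *Elovl6* by -0.59 and -1.38. *Fasn* (fatty acid synthase) stood at 28.3 and 21.1 CPM at day 10 and at 26.4 and 13.2 CPM at day 14, and *Scd2*, a stearoyl-CoA desaturase, differed by -0.41 and -1.33. For *Scd1*, its close paralog, the interval held 0 at day 10 and the ratio was -1.24 at day 14. *Acly*, which makes cytosolic acetyl-CoA for both pathways, was 0.49 higher at day 10 and -0.07 (-0.25 to 0.10) at day 14. At day 10 the 1.5-fold bound fell between *Pmvk* (0.94) and *Acly* (0.49) on the high side and between *Elovl6* (-0.59) and *Fasn* (-0.42) on the low side.

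**Figure D2:**
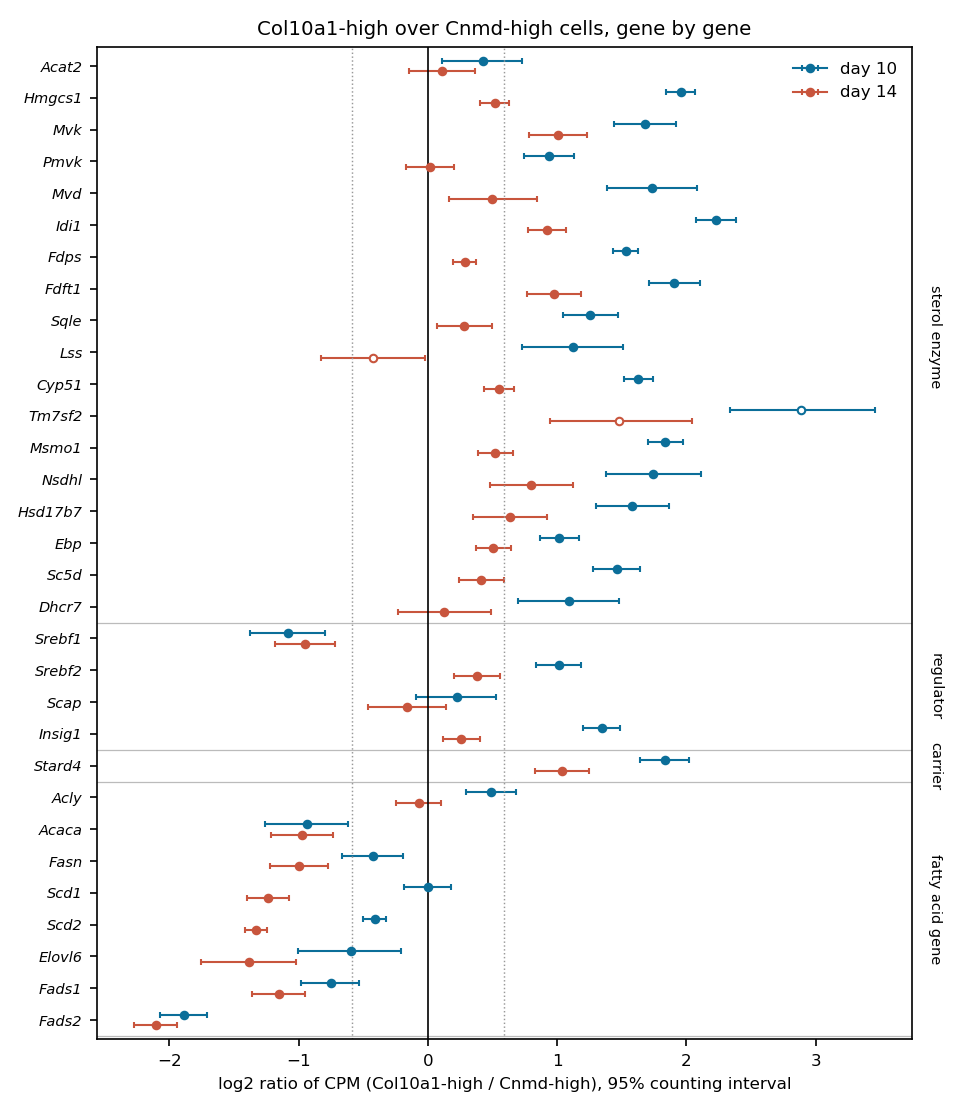
Log2 ratio of CPM (x axis) in *Col10a1*-high over *Cnmd*-high cells for each of the 31 genes (y axis), grouped by role, at day 10 and day 14, with exact 95% counting intervals. Dotted lines mark 1.5-fold, and open points are genes under 5 CPM in the library. The sterol enzymes lie right of 0 at day 10 and closer to 0 at day 14, and *Fads2* lies farthest to the left on both days.

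*Col10a1*-high cells were then split at 5 UMIs per 10000 of *Mmp13*, the collagenase of late hypertrophic chondrocytes. This split was chosen after seeing the data. The *Mmp13*-low cells (171 at day 10 and 402 at day 14) held 1742 and 1049 CPM of sterol enzymes, and the *Mmp13*-high cells (305 and 714) held 625 and 469 CPM. The log2 ratios were 1.48 (1.42 to 1.54) and 1.16 (1.11 to 1.21). The fatty acid sum differed in the same direction, with 557 against 181 CPM at day 10 and 294 against 145 CPM at day 14. At day 10 the *Mmp13*-low cells thus held more fatty acid gene RNA than *Cnmd*-high cells (557 against 487 CPM). At day 14 the *Mmp13*-high cells held less sterol enzyme RNA than *Cnmd*-high cells (469 against 493 CPM). Of all 31 genes, 26 of 30 counted were at least 1.5-fold higher in *Mmp13*-low cells at day 10, where 10.3% of all genes were, and 23 of 29 at day 14, where 5.72% were. None of the counted genes was 1.5-fold lower, against 22.7% and 12.6% of all genes. Nothing is read from these counts, since the list came from a chondrocyte cluster and the split from the same data.

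Single genes showed how steep this step was. *Idi1* stood at 182 and 41.2 CPM in *Mmp13*-low and *Mmp13*-high cells at day 10 and at 101 and 34.3 CPM at day 14. *Hmgcs1* stood at 280.4 and 79.2 CPM at day 10 and at 142 and 52.8 CPM at day 14. *Scd2* stood at 295 and 66.4 CPM at day 10 and at 137 and 52.8 CPM at day 14, and *Scd1* at 80.0 and 13.0 CPM and at 43.0 and 12.2 CPM. *Scd1* had the largest log2 ratio of the 31 genes on both days, 2.63 (2.23 to 3.04) and 1.82 (1.53 to 2.11). The intervals of *Srebf1* and *Scap* held 0 on both days. The 2 sets of cells had nearly the same *Col10a1* level (32188 and 32348 CPM at day 10, 33267 and 29815 CPM at day 14) and differed in *Col2a1* (47562 and 17692 CPM at day 10, 31181 and 14395 CPM at day 14). *Ihh*, the gene of Indian hedgehog, stood at 731 and 926 CPM at day 10 and at 764 and 928 CPM at day 14.

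**Figure D3:**
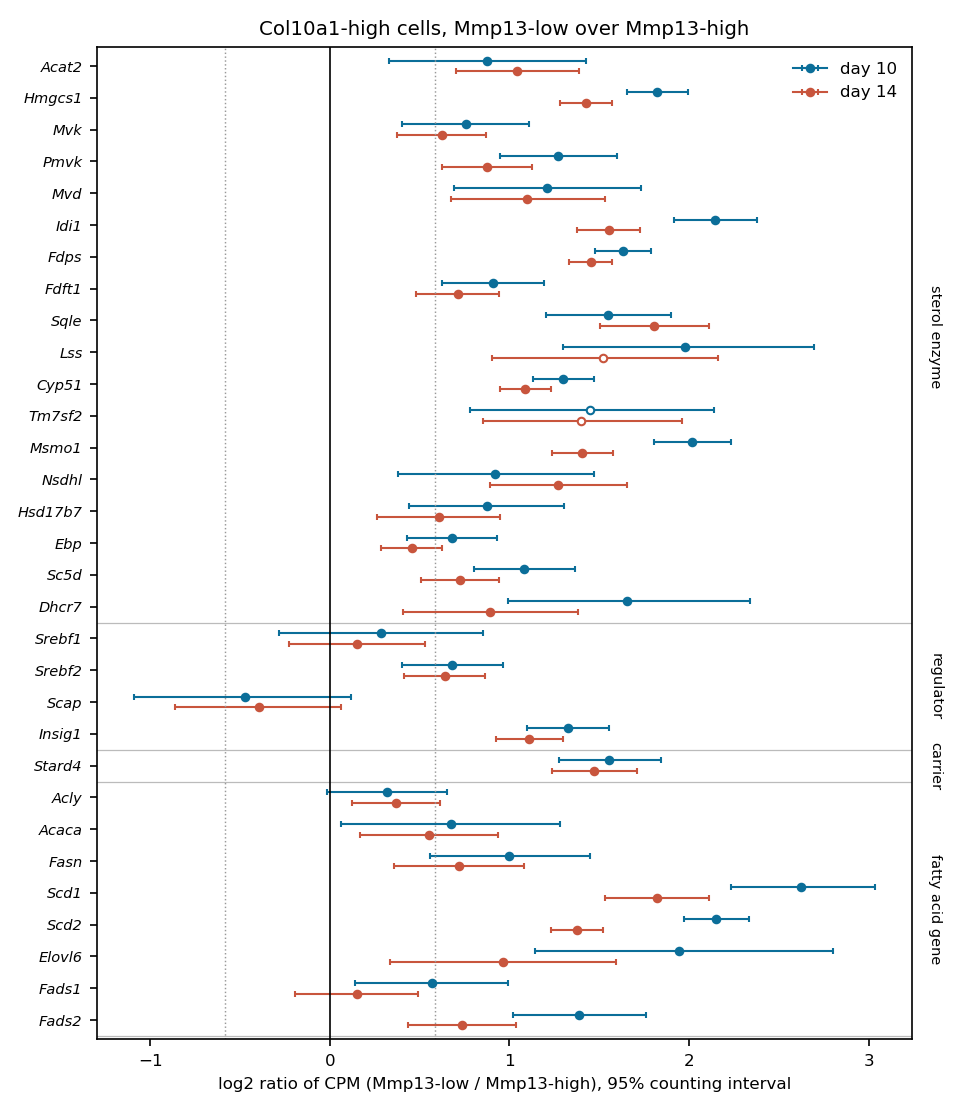
Log2 ratio of CPM (x axis) in *Mmp13*-low over *Mmp13*-high cells among *Col10a1*-high cells for each of the 31 genes (y axis), at day 10 and day 14, with exact 95% counting intervals. Dotted lines mark 1.5-fold, and open points are genes under 5 CPM in the library. *Scap* is the one gene left of 0, and *Scd1* lies farthest to the right on both days.

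Against *Aspn*-high cells, *Cnmd*-high cells held more sterol enzyme RNA at day 14, while the sign at day 10 rested on 1 gene, *Ebp*. The sum of all 18 sterol enzymes was 347 against 414 CPM at day 10, a log2 ratio of -0.26 (-0.30 to -0.21), and 493 against 334 CPM at day 14, a log2 ratio of 0.56 (0.52 to 0.60). The median ratio over all genes was -0.30 and -0.34, so the day 10 difference lay close to that of a typical gene. Without *Ebp*, a choice made after seeing the data, the sums were 315 against 303 CPM at day 10, a log2 ratio of 0.056 (0.0058 to 0.11), and 452 against 224 CPM at day 14, a log2 ratio of 1.01 (0.97 to 1.06). Of the 18 enzymes, 10 were lower in *Cnmd*-high cells at day 10, 8 of them with an interval below 0, and 5 had an interval above 0. At day 14, 3 were lower and 12 had an interval above 0. The fatty acid sum was higher in *Cnmd*-high cells on both days, with 487 against 358 CPM and 479 against 280.4 CPM. Its largest parts at day 10 were *Scd2* (204 against 177 CPM) and *Fads2* (118 against 42.8 CPM). *Scd1*, *Fads1*, and *Acly* were also higher at day 10. *Acaca* (21.7 against 23.4 CPM), *Fasn* (28.3 against 30.1 CPM), and *Elovl6* (11.6 against 15.5 CPM) were lower. Of the 31 genes, 6 of 30 counted were at least 1.5-fold higher at day 10, where 8.12% of all genes were, and 12 of 29 at day 14, where 8.01% were. With size factors in place of CPM, 19 were higher at day 14, where 11.8% of all genes then were. *Ebp* and *Nsdhl* (4.3 against 7.9 CPM, a log2 ratio of -0.89) were 1.5-fold lower at day 10, against 2810 of 9359 genes, and *Ebp* at day 14, against 33.4% of all genes. Here too nothing is read from the counts, since the list came from a chondrocyte cluster.

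The sterol result also differed between cells of different depth. Within cells of 8000 to 25000 UMIs the log2 ratio was -0.68 at day 10 and -0.10 at day 14 with all 18 enzymes, and -0.42 (-0.47 to -0.36) and 0.30 (0.24 to 0.37) without *Ebp*. In those cells 2 in place of 6 genes were 1.5-fold higher at day 10. The ratio of all 18 also changed with the marker thresholds, to 0.050 at day 10 with all of them at 0.5 times and to -0.37 at day 14 with all of them doubled. In *Cnmd*-high cells of over 25000 UMIs the sterol sum was 613 CPM at day 10 and 739.7 CPM at day 14, against 259 and 316 CPM in cells of 8000 to 25000 UMIs. Those deep cells also held more *Col10a1* (469.9 against 132 CPM at day 10, and 479.9 against 193 CPM at day 14) and more *Ihh* (55.7 against 21.9 CPM, and 109 against 30.01 CPM). *Col10a1*-high cells of over 25000 UMIs likewise held more than those of 8000 to 25000 UMIs, with 1458 against 912 CPM at day 10 and 928 against 614 CPM at day 14. In *Aspn*-high cells the deep and the middle cells differed less, with 521 against 415 CPM at day 10 and 329.7 against 339 CPM at day 14. In the 95 *Cnmd*-high cells under 8000 UMIs at day 10 the sterol sum was 618 CPM, and in the 39 at day 14 it was 297 CPM. Whether depth, cell size, or doublets had a part in this was not tested.

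*Msmo1* and *Idi1* were higher in *Cnmd*-high than in *Aspn*-high cells on both days. *Msmo1* stood at 29.1 against 15.2 CPM at day 10 and at 42.9 against 9.4 CPM at day 14, and *Idi1* at 20.2 against 10.3 CPM and 31.6 against 6.6 CPM. *Fads2* stood at 118 against 42.8 CPM at day 10 and at 81.9 against 24.5 CPM at day 14, with log2 ratios of 1.47 and 1.74. *Scd1* differed by 1.07 and 2.16. *Ebp*, the sterol isomerase that binds the drug emopamil (chrX:8185329-8193512, minus strand), had the lowest ratio of the sterol enzymes on both days. It stood at 32.0 CPM in *Cnmd*-high and 112 CPM in *Aspn*-high cells at day 10, and at 41.0 and 110.2 CPM at day 14, which gave log2 ratios of -1.80 (-1.92 to -1.69) and -1.43 (-1.54 to -1.31). *Ebp* was also lower in *Col10a1*-high (64.7 and 58.3 CPM) and *Ifitm5*-high cells (68.8 and 69.3 CPM) than in *Aspn*-high cells on both days.

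**Figure D4:**
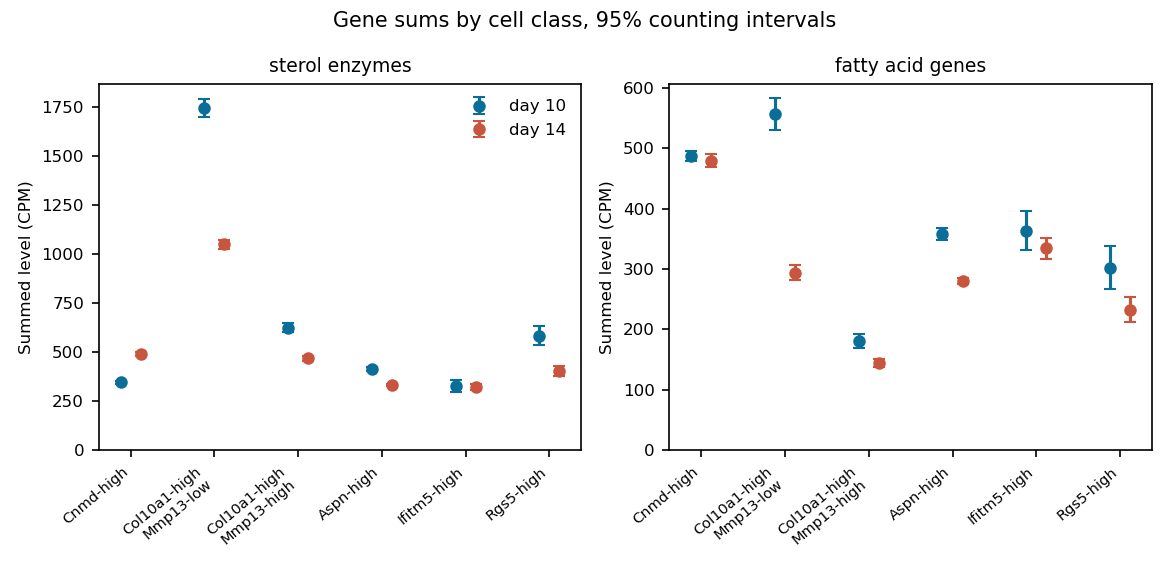
Summed CPM (y axis) of the 18 sterol enzymes (left) and the 8 fatty acid genes (right) in 6 sets of cells (x axis) at day 10 and day 14, with bars for exact Poisson 95% intervals. The *Mmp13*-low part of *Col10a1*-high cells holds the highest sterol sum on both days, 1742 and 1049 CPM, and the *Mmp13*-high part the lowest fatty acid sum, 181 and 145 CPM.

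The sterol sum in *Ifitm5*-high cells was 329 CPM at day 10 and 322 CPM at day 14, against 414 and 334 CPM in *Aspn*-high cells. The log2 ratio was -0.33 (-0.47 to -0.20) at day 10, close to the median of all genes (-0.37), and its interval held 0 at day 14 (-0.05, -0.14 to 0.03). With doubled thresholds, which left 25 *Ifitm5*-high cells at day 10, the ratio was 0.29. Without *Ebp* it was -0.22 at day 10 and 0.17 (0.079 to 0.27) at day 14. Higher by 1.5-fold were 3 of 30 genes at day 10 and 4 of 29 at day 14, against 7.14% and 7.15% of all genes, and lower were 12 and 10, against 36.7% and 36.0%. *Scd1* was the gene that stood out here, with 70.9 CPM in *Ifitm5*-high and 18.3 CPM in *Aspn*-high cells at day 10 and 48.2 and 12.7 CPM at day 14. Its log2 ratio was 1.95 (1.61 to 2.29) at day 10 and 1.93 at day 14. *Fads1* (9.3 against 28.6 CPM at day 10, 10.0 against 18.7 CPM at day 14) and *Acaca* (10.7 against 23.4 CPM, 11.4 against 23.0 CPM) were lower in *Ifitm5*-high cells on both days.

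*Rgs5*-high cells held more sterol enzyme RNA than *Aspn*-high cells, at 584 against 414 CPM at day 10 and 402 against 334 CPM at day 14. The fatty acid sum was lower, at 302 against 358 CPM and 232 against 280.4 CPM. Higher by 1.5-fold were 12 of 30 genes at day 10 and 9 of 29 at day 14, against 15.9% and 16.2% of all genes, and lower were 6 and 5, against 22.9% and 19.5%. *Pmvk*, the second kinase of the mevalonate steps, stood at 55.4 against 20.5 CPM at day 10 and 33.1 against 20.3 CPM at day 14, and *Idi1* at 42.6 against 10.3 CPM and 19.1 against 6.6 CPM. *Lss* had no UMI in the 71 *Rgs5*-high cells of day 10. *Rgs5*-high cells were also shallower than the rest, with a median of 12529 and 9262 UMIs, and had 3589 and 4451 CPM of *Hspa1a*, against 1240 and 1791 CPM in *Aspn*-high cells.

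From day 10 to day 14 the sterol sum was higher in *Cnmd*-high cells and lower in *Col10a1*-high cells. The log2 ratio of day 14 over day 10 was 0.51 (0.47 to 0.55) in *Cnmd*-high, -0.60 (-0.64 to -0.56) in *Col10a1*-high, -0.31 (-0.35 to -0.27) in *Aspn*-high, and -0.54 (-0.69 to -0.38) in *Rgs5*-high cells, and the interval held 0 in *Ifitm5*-high cells (-0.03). In *Cnmd*-high cells 4 of 29 genes were at least 1.5-fold higher at day 14 and none lower, against 2.16% and 3.42% of all genes. These were *Nsdhl* (0.76), *Fdps* (0.75), *Idi1* (0.65), and *Hmgcs1* (0.60). In *Col10a1*-high cells none was higher and 16 of 29 were lower, against 2.53% and 5.63%, and in *Aspn*-high cells none was higher and 10 were lower, against 1.25% and 3.50%. *Fads2* was lower at day 14 in *Cnmd*-high (118 and 81.9 CPM), *Col10a1*-high (31.9 and 19.0 CPM), and *Aspn*-high cells (42.8 and 24.5 CPM). *Hspa1a* also differed between the libraries, with 2409 and 4980 CPM in *Cnmd*-high and 2041 and 3337 CPM in *Col10a1*-high cells, and its part in these differences was not tested.

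At day 7 only a wider class could be formed, 64 cells with at least 10 *Cnmd* UMIs per 10000. Their sterol sum was 386 CPM (353 to 422) and their fatty acid sum 731 CPM (686 to 780). The same class held 439 and 523 CPM at day 10 (3112 cells) and 566 and 492 CPM at day 14 (2083 cells). The fatty acid sum was thus highest at day 7, in the library whose cells carried the blood genes, and the part of those genes in it was not tested.

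Cells of 1 class differed widely in their sterol enzymes. The list was chosen because its genes led a cluster of chondrocytes in these cells, so that they vary together among chondrocytes follows from that choice and is a description, and nothing is read from the counts or background shares that follow for the chondrocyte classes. After thinning each cell to 8000 UMIs, the sterol sum of a *Cnmd*-high cell was a median of 1 UMI on both days, with a 90th percentile of 6 UMIs at day 10 and 10 UMIs at day 14 and a maximum of 35 and 68. In *Col10a1*-high cells 26.6% (day 10) and 14.7% (day 14) of the cells held 10 or more such UMIs, against 5.85% and 10.7% of *Cnmd*-high and 4.40% and 2.29% of *Aspn*-high cells. Shallower cells were left out, 95 and 39 of the *Cnmd*-high, 62 and 129 of the *Col10a1*-high, and 117 and 457 of the *Aspn*-high cells.

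Each sterol enzyme was compared between sterol-rich and sterol-poor cells, the third of a class highest and the third lowest in the sum of the other enzymes, among genes of at least 20 CPM. In *Cnmd*-high cells 4 of 5 sterol enzymes were at least 1.5-fold higher in the sterol-rich cells at day 10 and 8 of 8 at day 14, where 4.09% and 5.58% of all genes were. *Fdps* differed by 3.63 and 3.67 (log2), *Msmo1* by 4.23 and 3.49, and *Hmgcs1* by 2.38 and 3.39, while *Ebp* differed by 0.50 and 0.69. In *Col10a1*-high cells 12 of 12 and 10 of 10 were higher, against 7.39% and 4.67%, and *Idi1* differed by 5.15 and 3.25. In *Aspn*-high cells 4 of 5 and 3 of 4 were higher, against 1.85% and 0.164%, with smaller ratios such as 1.90 and 1.52 for *Fdps*.

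The fatty acid genes are on the same list, although they were not used to rank the cells. In *Cnmd*-high cells 5 of 7 were higher at day 10 and 7 of 7 at day 14, against 4.09% and 5.58% of all genes. In *Col10a1*-high cells 5 of 5 and 2 of 2 were higher, against 7.39% and 4.67%. In *Aspn*-high cells 1 of 6 and none of 5 were higher, against 1.85% and 0.164%. In *Ifitm5*-high cells of day 14 (69 sterol-rich and 69 sterol-poor cells) 3 of 4 sterol enzymes and 4 of 4 fatty acid genes were higher, where 13.6% of all genes were, although the intervals of *Fasn* and *Scd1* held 0, and at day 10 each set held 23 cells and is not read. *Scd2* differed by 1.54 and 1.71 in *Cnmd*-high, by 3.41 and 2.45 in *Col10a1*-high, and by 0.59 and 0.22 in *Aspn*-high cells. *Insig1* differed by 2.38 and 3.40 in *Cnmd*-high cells, *Srebf2* by 1.29 and 1.48, and *Srebf1* by 0.52 and 0.66. The sterol-rich *Cnmd*-high cells were also deeper before thinning, with a median of 20868 against 18010 UMIs at day 10 and 24166 against 19080 UMIs at day 14, and the median ratio over all other genes was 0.06 and 0.02.

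Outside the 31 genes, the 10 with the largest ratios on both days in *Cnmd*-high cells, taken by the smaller of the 2 values, were *Ihh*, *Ppa1*, *Col10a1*, *Car12*, *Panx3*, *Sgms2*, *Pcsk6*, *Scube1*, *Smpd3*, and *Fxyd3*. The cells were ranked by genes chosen from a chondrocyte cluster of these same data. Genes of that cluster can lead this list by that choice, so it is a description and nothing is read from it. *Ihh* stood at 53.6 CPM in the sterol-rich and 10.6 CPM in the sterol-poor cells at day 10, and at 137 and 14.7 CPM at day 14. *Col10a1* stood at 355 and 87.7 CPM at day 10 and at 560 and 138 CPM at day 14, although cells with 100 or more *Col10a1* UMIs per 10000 were not in this class. *Ppa1*, the cytosolic pyrophosphatase, stood at 522 and 105 CPM and at 793 and 127 CPM. *Sgms2* and *Smpd3*, an enzyme that makes and an enzyme that breaks down sphingomyelin, differed by 1.52 and 1.39 at day 10 and by 1.73 and 1.87 at day 14. *Scube1* encodes a secreted protein of the family that helps release lipid-modified hedgehog.

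**Figure D5:**
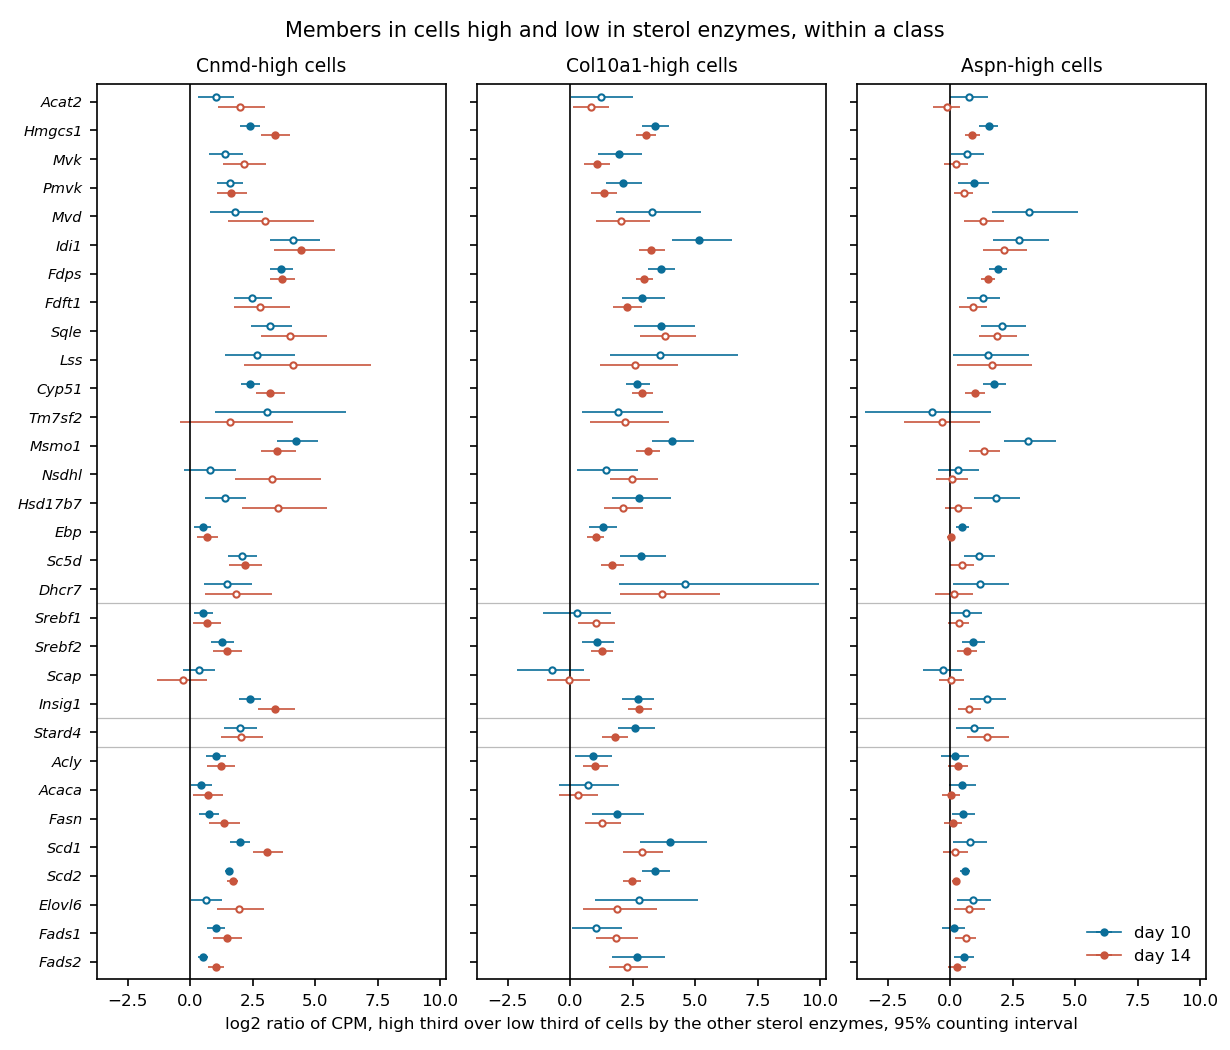
Log2 ratio of CPM (x axis) in the third of cells highest over the third lowest in the sum of the other sterol enzymes, for each of the 31 genes (y axis), in *Cnmd*-high, *Col10a1*-high, and *Aspn*-high cells thinned to 8000 UMIs, with exact 95% counting intervals. Open points are genes under 20 CPM in the class. In both chondrocyte classes the filled points lie right of 0, and in *Aspn*-high cells they lie nearer to it.

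The promoters of these genes were read from RefSeq (GRCm38.p6, 250 bases before to 50 after the start site), which held 24 of the 31 genes. The search covered both strands for the sterol response element of SREBPs as TCACNCCAC and for CCAAT, the letters of the NF-Y site that often lies beside it. CCAAT was found for 14 of 15 sterol enzymes with a promoter (93.3%), for 3 of 4 regulators, and for 2 of 5 fatty acid genes, against 41.1% of all 27025 genes with a promoter. A gene counted if any of its promoters matched, and the share of all genes was not limited to genes expressed here. By promoter, 66.7% of the 30 promoters of the listed genes held CCAAT, against 37.4% of all promoters. The sterol response element was found for *Hmgcs1* only, against 1.44% of all genes, and since SREBPs bind many variants of it, its absence from the other windows says only that these letters are not there. A match is a description of letters and not a site shown to be used.

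The 250 bases before the start site are shown for *Hmgcs1*, which held both motifs, for *Idi1* and *Msmo1*, enzymes with large ratios between sterol-rich and sterol-poor cells, and for *Fads2*, the fatty acid gene that differed most between the chondrocyte classes. The start sites are those of RefSeq and differ from the gene ends given above, which are those of GENCODE. The sequences run 5′ to 3′ on the gene's strand, with capitals for the motifs on either strand. They lie at chr13:119690101-119690350 (plus), chr13:8885356-8885605 (plus), chr8:64733579-64733828 (minus), and chr19:10101504-10101753 (minus).
Hmgcs1: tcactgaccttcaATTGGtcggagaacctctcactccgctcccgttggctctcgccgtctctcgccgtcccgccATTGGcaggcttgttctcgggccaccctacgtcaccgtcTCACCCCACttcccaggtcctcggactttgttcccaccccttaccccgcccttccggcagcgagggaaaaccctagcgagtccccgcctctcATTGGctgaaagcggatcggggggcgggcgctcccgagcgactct
Idi1: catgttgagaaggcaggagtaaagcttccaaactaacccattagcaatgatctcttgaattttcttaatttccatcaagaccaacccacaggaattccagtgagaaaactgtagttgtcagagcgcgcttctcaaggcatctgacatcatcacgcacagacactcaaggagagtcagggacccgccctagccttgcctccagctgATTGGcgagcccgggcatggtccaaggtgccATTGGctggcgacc
Msmo1: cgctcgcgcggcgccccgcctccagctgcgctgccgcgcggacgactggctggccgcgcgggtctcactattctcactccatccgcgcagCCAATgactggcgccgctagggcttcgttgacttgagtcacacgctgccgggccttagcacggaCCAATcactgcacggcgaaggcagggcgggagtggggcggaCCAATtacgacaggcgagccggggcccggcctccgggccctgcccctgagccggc
Fads2: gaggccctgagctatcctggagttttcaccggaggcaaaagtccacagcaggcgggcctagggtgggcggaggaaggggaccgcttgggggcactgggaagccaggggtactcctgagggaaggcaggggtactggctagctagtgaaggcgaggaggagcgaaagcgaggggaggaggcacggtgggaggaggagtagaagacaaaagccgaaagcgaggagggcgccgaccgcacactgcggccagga
The *Hmgcs1* element began 137 bases before the start site, and 3 CCAAT motifs lay in the stretch shown. *Idi1* held 2 CCAAT motifs, *Msmo1* held 3, and *Fads2* held none.

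Other genes of the same pathways were counted in the same way. Of 15 further sterol genes, 13 passed the 5 CPM minimum, and 5 were higher and 1 lower by 1.5-fold in *Col10a1*-high than in *Cnmd*-high cells on both days, against 20.9% and 18.2% of all genes at day 10 and 18.8% for both at day 14. The higher ones included *Insig2* (28.8 and 146 CPM at day 10, 33.2 and 135 CPM at day 14) and *Lbr*, a sterol reductase of the nuclear envelope (59.0 and 53.1 CPM in *Col10a1*-high cells, with log2 ratios of 2.30 and 2.15). The lower one was *Tmem97*, which binds sterols (88.5 and 32.0 CPM, 95.3 and 27.6 CPM). Of 13 further fatty acid genes, 12 were counted, and 6 were higher at day 10 and 3 at day 14, with none lower on either day, against the same shares of all genes. *Lpin1*, a phosphatidate phosphatase, stood at 4.3 and 23.3 CPM at day 10 and at 6.0 and 18.4 CPM at day 14. In the *Mmp13* split 2 of the 13 sterol genes were 1.5-fold higher in *Mmp13*-low cells at day 10, against 10.3% of all genes.

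Cell by cell, single genes were sparse once depth was matched. After thinning to 2000 UMIs, *Idi1* was seen in 3.29% of *Cnmd*-high and 13.9% of *Col10a1*-high cells at day 10 and in 3.63% and 8.83% at day 14, against 1.92% and 1.20% of *Aspn*-high cells. *Fads2* was seen in 20.7% of *Cnmd*-high and 4.29% of *Col10a1*-high cells at day 10 and in 14.8% and 3.18% at day 14. Before thinning, at median depths of 18416 and 17726 UMIs at day 10, the shares of *Fads2* were 69.9% and 28.6%. The 6570 *Ptprc*-bearing cells of day 7 had a median depth of 5045 UMIs, and in the 6188 of them with at least 2000 UMIs *Idi1* was seen in 0.679% and *Fads2* in 0.307% after thinning. A share of 1.92% for *Idi1* in *Aspn*-high cells at day 10 has an exact interval of 1.18% to 2.95%.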

How the data were processed

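The deposited files hold raw UMI counts per gene and cell, 1 matrix for each of the 3 libraries. Per the labels, the authors aligned reads and collapsed UMIs with Cell Ranger 3.0 on mm10. The matrix header gives version 3.1.0, and the study's methods name another version and kit chemistry, so the exact pipeline is uncertain. The genes and gene lists were chosen with earlier results of these data known. Cells with 500 to 5000 genes, at most 10% mitochondrial and at most 5% hemoglobin UMIs, and no *Ptprc* were analysed, and no doublet caller was run. The classes are cut from marker levels and are ranges, not cell types, and 31 cells at day 10 and 15 at day 14 were both *Cnmd*-high and *Aspn*-high. UMIs were summed per class. Ratios have exact conditional binomial 95% intervals, and shares have Clopper-Pearson intervals, for counting error only. A gene counted as higher or lower at 1.5-fold, among genes of at least 5 CPM in the library. All 31 genes, and the 10 outside genes by the smaller ratio of both days, were named. Scripts were tested on simulated data and ran in Python 3.11.15 with numpy 2.4.6, pandas 2.3.3, scipy 1.17.1, and matplotlib 3.10.9. The *Mmp13* split, the day 7 class, the split by depth, the sums without *Ebp*, and the ranking within *Col10a1*-high cells were added after seeing the data.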

Additional observations from a re-analysis of the deposited data

Results flagged for a closer look

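The sterol enzyme sum of all 18 enzymes differed in opposite directions between libraries and between classes, and none of these differences was tested, since each day is 1 library. *Cnmd*-high over *Aspn*-high cells gave a log2 ratio of -0.26 at day 10 and 0.56 at day 14. Without *Ebp* the ratios were 0.056 and 1.01. In cells of 8000 to 25000 UMIs they were -0.42 and 0.30 without *Ebp*, so leaving it out did not change the day 10 sign there. From day 10 to day 14 the ratio was 0.51 in *Cnmd*-high cells, whereas it was -0.60 in *Col10a1*-high, -0.31 in *Aspn*-high, and -0.54 in *Rgs5*-high cells. Without *Ebp* the first 3 were 0.52, -0.64, and -0.43. Within *Col10a1*-high cells the ratio was -0.73 in the *Mmp13*-low and -0.42 in the *Mmp13*-high cells, so both parts went the same way. *Cnmd*-high cells were also deeper at day 14 (a median of 20615 against 18416 UMIs), and their sum in cells of 8000 to 25000 UMIs was 259 CPM at day 10 and 316 CPM at day 14.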

How the results depend on the processing

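Across 16 results, 206 alternatives were run, of which 130 stayed inside the counting interval (for counts, within 1.5 times), 67 left it with the same sign or as a count, and 6 changed the sign of a ratio whose interval lay apart from 0. In 3 more the sign changed for a ratio whose interval held 0. The cause was not tested. Values are log2 ratios of sums unless said otherwise. The sterol ratio of *Cnmd*-high over *Aspn*-high cells at day 10 (-0.26) was 0.050 with every marker threshold at 0.5 times, 0.084 with *Cnmd* of at least 10, and 0.056 without *Ebp*, and so changed sign. It was -0.064 with size factors, -0.13 without matrix genes in the total, -0.59 with thresholds doubled, -0.68 in cells of 8000 to 25000 UMIs (-0.42 there without *Ebp*), and -0.21 without cycling cells. At day 14 (0.56) it was -0.37 with thresholds doubled and -0.10 in cells of 8000 to 25000 UMIs, and so changed sign. It was 0.78 with size factors, 0.68 without matrix genes, 0.46 as a mean over cells, 0.69 with thresholds at 0.5 times, 0.76 with *Cnmd* of at least 10, 1.01 without *Ebp*, and 0.30 without *Ebp* in cells of 8000 to 25000 UMIs. The fatty acid ratio of the same classes kept its sign. At day 10 (0.44) it was 0.49 without any limit on cells, 0.64 with size factors, 0.57 without matrix genes, 0.50 and 0.32 with thresholds at 0.5 times and doubled, 0.20 in cells of 8000 to 25000 UMIs, and 0.55 with *Cnmd* of at least 10. At day 14 (0.77) it was 0.83 without the upper limit on genes, 0.82 without any limit on cells, 0.99 with size factors, 0.89 without matrix genes, 0.68 as a mean over cells, 0.26 with thresholds doubled, and 0.32 in cells of 8000 to 25000 UMIs. The sterol ratio of *Col10a1*-high over *Cnmd*-high cells kept its sign. At day 10 (1.60) it was 1.55 without the upper limit on genes, without any limit on cells, and as a mean over cells, 1.44 and 2.04 with thresholds at 0.5 times and doubled, 1.81 in cells of 8000 to 25000 UMIs, 1.66 without cycling cells, 1.26 with *Cnmd* of at least 10, and 1.65 without *Ebp*. At day 14 (0.49) it was 0.45 without the upper limit on genes and without any limit on cells, 0.54 with size factors, 0.37 and 1.35 with thresholds at 0.5 times and doubled, 0.96 in cells of 8000 to 25000 UMIs, and 0.29 with *Cnmd* of at least 10. The ratio of *Mmp13*-low over *Mmp13*-high cells kept its sign. At day 10 (1.48) it was 1.41 without any limit on cells, 1.55 with size factors, 1.56 without matrix genes, 1.36 as a mean over cells, 1.59 with thresholds at 0.5 times, and 1.28 in cells of 8000 to 25000 UMIs. At day 14 (1.16) it was 1.23 with size factors, 1.22 without matrix genes, 1.33 and 0.94 with thresholds at 0.5 times and doubled, 0.91 at an *Mmp13* threshold of 20, and 1.23 without *Ebp*. The ratio of *Ifitm5*-high over *Aspn*-high cells at day 10 (-0.33) changed sign to 0.29 with thresholds doubled, which left 25 *Ifitm5*-high cells, and was -0.077 with size factors and -0.14 without matrix genes. At day 14 (-0.05, with an interval that held 0) it was 0.18 with size factors, 0.11 without matrix genes, 0.17 without *Ebp*, -0.15 with thresholds at 0.5 times, and -0.22 in cells of 8000 to 25000 UMIs. The count of genes higher in *Cnmd*-high than in *Aspn*-high cells was 2 in cells of 8000 to 25000 UMIs and 2 at a fold of 2 at day 10 (6), and 19 with size factors at day 14 (12). The count higher in *Col10a1*-high than in *Cnmd*-high cells at day 14 (6) was 18 with thresholds doubled, 16 in cells of 8000 to 25000 UMIs, and 2 at a fold of 2. The count lower there was 2 at a fold of 2 at day 10 (5) and 5 at day 14 (8). No paired analysis was possible because each day is 1 library, and no library could be left out for the same reason. At these depths a gene of few CPM is seen in a small share of cells, so single cells were not compared by single genes.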
